A study of Mus musculus with 6 samples.

Results

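miR-143 and miR-145 are the miRNAs best known from smooth muscle. Small RNA reads of 5 mature miRNAs were followed, chosen by name (mmu-miR-143-3p, mmu-miR-143-5p, mmu-miR-145a-5p, mmu-miR-145a-3p and mmu-miR-145b, with mmu for mouse) out of 1900 mature names in the tables. Each had 1 row and a count in all 6 libraries, and all 5 passed the filter on low counts that left 460 miRNAs. The tissue was renal cortex of C57BL/6 mice. The mice of one group (NASHTofo, n = 3) received tofogliflozin for 8 weeks in a diet rich in fat and cholesterol that also held bile salt. Those of the other group (NASH, n = 3) received the diet alone for the same time. Tofogliflozin inhibits SGLT2, the cotransporter that takes up glucose in the proximal tubule. Both groups had the steatohepatitis-inducing diet, and mice on ordinary chow were not analysed here. Each library is one mouse per the series' design text, and the sources used here give no dose, age or sex.

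The hairpin genes lie on chromosome 18. Mir143 is at 61649196 to 61649258, and Mir145a at 61647825 to 61647894, both on the minus strand of GRCm38 (mm10), so that miR-143 is upstream and 1301 bp separate the hairpins. GENCODE M21 has no other gene over either hairpin, and the nearest protein-coding genes are Csnk1a1 and Il17b. Mir145b stands alone on the same chromosome at 69022199 to 69022273 on the minus strand, 7.37 Mb away and between Mc2r and Tcf4.

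The miR-143 and miR-145 hairpins are cut from 1 primary transcript, which the factors SRF and myocardin switch on in vascular smooth muscle. Dicer leaves a duplex of a 5p and a 3p arm from each hairpin, and usually the arm that enters Argonaute is kept while its partner is degraded. In vessels miR-145 represses Klf4 and Klf5, and with miR-143, which represses Elk1, it favours the contractile over the proliferating state of smooth muscle cells. In the renal cortex such cells lie in arteries and arterioles, with related contractile cells in the glomerulus.

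The mature sequences printed here are from RefSeq (GRCm38.p6), matched by name, and belong to the 10 other miRNAs whose abundance followed a member most closely over the 6 libraries (values are given further on). They identify the miRNAs of other hairpins whose abundance is set beside the members, and do not show abundance themselves. Bases 2 to 8, the seed, are in capitals, and no 2 of the 10 share a seed. The first 5 followed miR-143-3p.
miR-872-5p: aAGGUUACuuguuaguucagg
miR-24-2-5p: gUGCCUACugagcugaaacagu
miR-29a-3p: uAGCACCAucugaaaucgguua
miR-99a-5p: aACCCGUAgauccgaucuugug
miR-27b-3p: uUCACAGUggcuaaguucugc
The other 5 followed miR-145a-5p.
miR-423-3p: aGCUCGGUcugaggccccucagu
miR-200c-3p: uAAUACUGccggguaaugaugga
miR-199a-5p: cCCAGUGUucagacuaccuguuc
miR-92a-3p: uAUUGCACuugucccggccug
miR-139-5p: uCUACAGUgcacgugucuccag

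Library totals, with 1 count per mature name, were 6643638 to 17241972 in tofogliflozin mice and 14276384 to 22886200 in diet-only mice. The smallest was tofogliflozin replicate 2, which also stood apart on the first principal component (52.0% of the variance). That library held more of the hepatocyte miRNA miR-122-5p, at 245 CPM (counts per 1000000 of the TMM-scaled library size), against 40.7 to 78.6 CPM in diet-only mice. The summed red blood cell miRNAs were at 224 CPM there and 46.6 to 164 CPM in diet-only mice, with all 3 counted in every library. Kidney tubule markers were abundant in each library, all 7 being counted, with sums of 159638 to 198002 CPM in tofogliflozin mice and 176293 to 184352 CPM in diet-only mice. Tofogliflozin replicate 2 had the highest tubule sum, and it had the lowest sums of the endothelial miRNAs (16203 CPM, against 18880 to 22979 CPM in diet-only mice) and of the striated muscle miRNAs (92.8 CPM, against 99.9 to 129 CPM in diet-only mice). The endothelial miRNA miR-139-5p was instead highest there, at 917 CPM against 622 to 821 CPM in diet-only mice. Of the 5 striated muscle miRNAs, 4 were counted in every library. The leukocyte miRNAs summed to 72.5 CPM in tofogliflozin replicate 2, which was not the lowest library. Their sums were 68.9 to 84.5 CPM in tofogliflozin mice and 80.2 to 104 CPM in diet-only mice. The part of these differences in the results was not tested, and values without this library follow beside the main results. In bulk cortex, fewer smooth muscle cells and less RNA per cell cannot be told apart.

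miR-143-3p, the arm of miR-143 that acts on Elk1, was among the most abundant miRNAs of the cortex and ranked 6 of 460 by mean CPM. It had 53602, 31421 and 58181 CPM in tofogliflozin replicates 1, 2 and 3, and 56865, 56414 and 52227 CPM in diet-only replicates 1, 2 and 3. Tofogliflozin replicate 2 was low, replicates 1 and 3 lay within or above the diet-only values, and the groups overlapped. As a share of the library total it made up 4.85% ± 1.51 in tofogliflozin mice and 5.44% ± 0.185 in diet-only mice (SD, n = 3 each). That total holds 1 count per mature name, the largest.

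miR-145a-5p, the arm that represses Klf4 and Klf5, was far less abundant and ranked 92. It had 363, 423 and 319 CPM in tofogliflozin replicates 1, 2 and 3, and 316, 318 and 345 CPM in diet-only replicates 1, 2 and 3. Here tofogliflozin replicate 2 was the highest library, and the groups again overlapped.

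The partner arms were both well measured. miR-143-5p, the minor arm of its hairpin (rank 161), had 56.8, 64.9 and 46.7 CPM in tofogliflozin replicates 1, 2 and 3, and 45.6, 43.4 and 53.5 CPM in diet-only replicates 1, 2 and 3. miR-145a-3p ranked 102, below its partner. It had 261, 143 and 312 CPM in tofogliflozin replicates 1, 2 and 3. In diet-only replicates 1, 2 and 3 it had 283, 318 and 261 CPM. Tofogliflozin replicate 2 was thus the highest library for both 5p arms and the lowest for both 3p arms.

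miR-145b, whose name marks it as close in sequence to miR-145a, was at the edge of detection, with 14, 13 and 20 counts in tofogliflozin replicates 1, 2 and 3, and 24, 14 and 23 counts in diet-only replicates 1, 2 and 3. These correspond to 1.36 ± 0.502 CPM in tofogliflozin mice and 1.19 ± 0.263 CPM in diet-only mice (SD, n = 3 each). The exact Poisson interval of its highest library, tofogliflozin replicate 2, ran from 1.03 to 3.32 CPM and that of its lowest, diet-only replicate 2, from 0.560 to 1.72 CPM, so the libraries were not distinguishable at this depth. Intervals cover counting error only, because the tables give reads and not molecules.

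**Figure D1:**
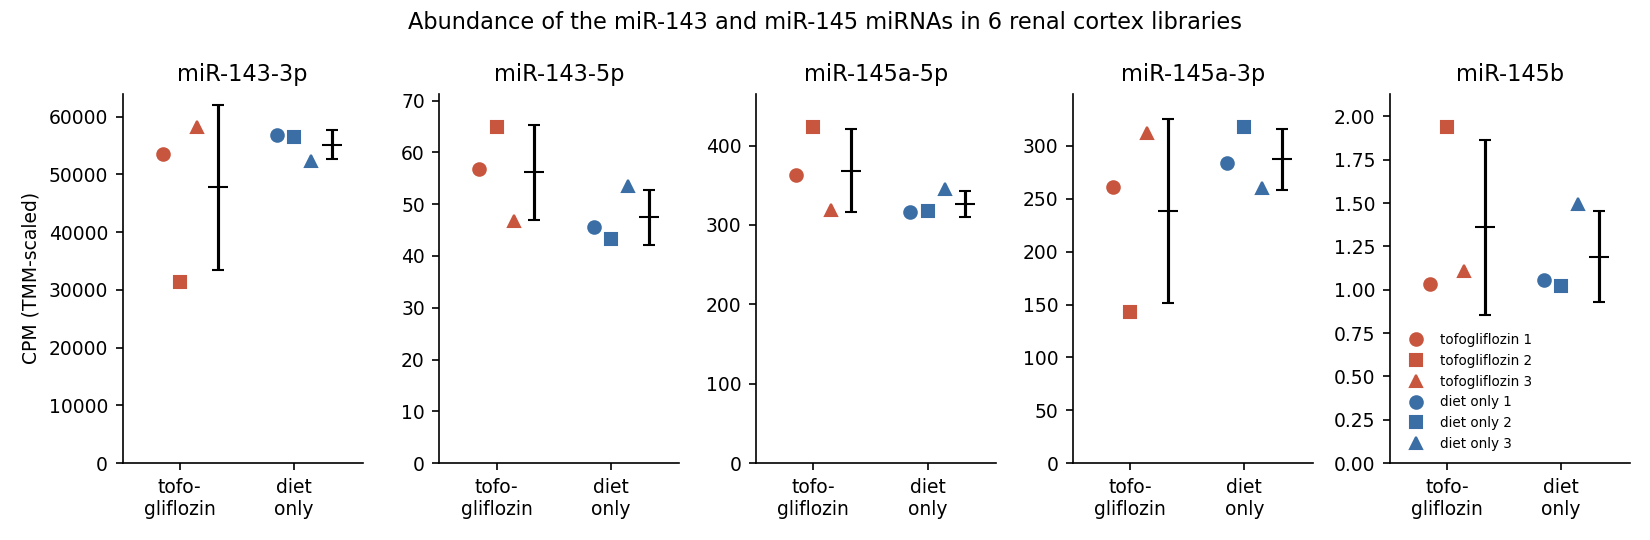
Each panel shows 1 miRNA, with TMM-scaled CPM on a linear axis from 0, tofogliflozin mice on the left and diet-only mice on the right. Symbols are single libraries by replicate number, and the bar at the right of each group is the mean with its SD (n = 3). Tofogliflozin replicate 2 (square) is low for miR-143-3p (31421 CPM) and miR-145a-3p (143 CPM) and high for miR-143-5p (64.9 CPM) and miR-145a-5p (423 CPM).

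Whether tofogliflozin changed the abundance of these miRNAs was tested with edgeR's quasi-likelihood test over all 460 miRNAs. None of the 5 passed an adjusted p of 0.05. Over all miRNAs tested 0 passed (0.0% called), 23 had an unadjusted p under 0.05 (5.0%), and DESeq2 called 2, neither of them a member. With each library left out in turn the unadjusted count ran from 11 without diet-only replicate 2 to 75 without tofogliflozin replicate 3, and 0 passed each time. The log2 fold changes, tofogliflozin over diet only, were -0.21 ± 0.21 (SE) for miR-143-3p and -0.27 ± 0.27 for miR-145a-3p, and 0.24 ± 0.18 for miR-143-5p and 0.17 ± 0.14 for miR-145a-5p. That of miR-145b was 0.13 ± 0.41. Adjusted p-values in edgeR were 0.859 to 0.973.

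For miR-143-3p the 95% interval ran from a fold of 0.615 to 1.22, and for miR-145a-5p from 0.900 to 1.41. Both intervals hold falls and rises, and that of miR-145b was the widest, at 0.569 to 2.11. Exact 2-sided permutation tests of log2 CPM gave p = 0.7 and 0.5 for the 3p arms of miR-143 and miR-145a, p = 0.2 for each of their 5p arms and p = 0.6 for miR-145b. The smallest p that 3 against 3 mice allow is 0.1. Groups overlapped for all 5, while they did not for 55 of the 460 miRNAs (12.0%).

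Both 3p arms had estimates below 0 and both 5p arms estimates above 0, a split that was much smaller without 1 library. Without tofogliflozin replicate 2 the log2 fold changes were 0.02 for miR-143-3p and -0.002 for miR-145a-3p, with 0.12 and 0.06 for the 5p arms of miR-143 and miR-145a and -0.15 for miR-145b. The interval of miR-143-3p then narrowed to between -0.17 and 0.21 on the log2 scale. Without tofogliflozin replicate 3 the estimates moved apart instead, to -0.35 and -0.49 for the 3p arms of miR-143 and miR-145a and 0.38 and 0.29 for their 5p arms, with edgeR adjusted p-values of 0.366 to 0.430.

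**Figure D2:**
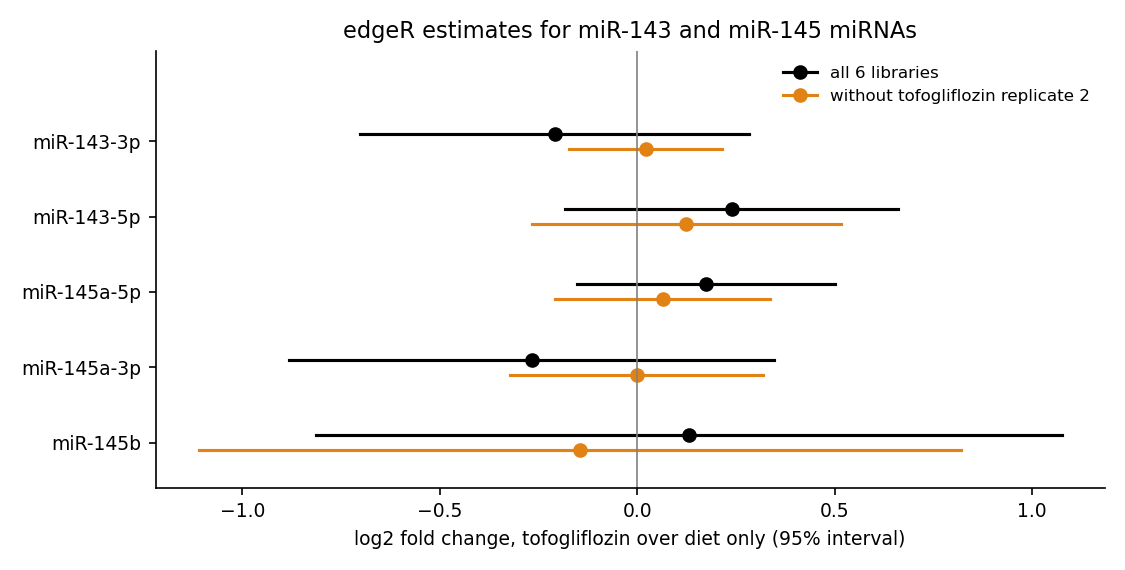
Log2 fold change (tofogliflozin over diet only) of each miRNA from edgeR, with its 95% interval, over all 6 libraries (black) and without tofogliflozin replicate 2 (orange). All 10 intervals include 0, and the estimate of miR-143-3p is -0.21 with all libraries and 0.02 without that one.

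The arms of each hairpin were set against each other next, as the log2 ratio of the 3p count to the 5p count, which needs no scaling between libraries. In miR-143 the 3p arm had 944, 484 and 1247 times the counts of the 5p arm in tofogliflozin replicates 1, 2 and 3, and 1247, 1301 and 977 times in diet-only replicates 1, 2 and 3. In miR-145a the arms were closer to equal than in miR-143. Its 3p arm took 41.8%, 25.2% and 49.4% of the reads of both arms in tofogliflozin replicates 1, 2 and 3, and 47.3% and 43.0% in diet-only replicates 1 and 3. In diet-only replicate 2 the arms were even, each being listed at 4345 counts. The 95% Wilson interval of the share in tofogliflozin replicate 2 was 23.8% to 26.6% and that in tofogliflozin replicate 1, the next lowest, was 40.8% to 42.9%, so tofogliflozin replicate 2 differed from the others by more than counting error.

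No arm ratio of the cluster differed between the groups beyond the spread between mice. The log2 ratio of miR-143 was 9.69 ± 0.70 in tofogliflozin mice and 10.19 ± 0.22 in diet-only mice (SD, n = 3 each), and that of miR-145a was -0.69 ± 0.79 in tofogliflozin mice and -0.19 ± 0.21 in diet-only mice. The differences were -0.49 ± 0.36 (SE) for miR-143 and -0.50 ± 0.38 for miR-145a, with an adjusted p of 0.948 for each in limma over 91 hairpins. Of those hairpins 0 passed an adjusted p of 0.05 (0.0%) and 1 had an unadjusted p under 0.05 (1.1%). The groups overlapped for miR-143 and miR-145a, as they did for all but 7 of the 91 (7.69%). Without tofogliflozin replicate 3, 21 of the 91 had an unadjusted p under 0.05, with a smallest adjusted p of 0.0576 in limma, and without any other library at most 1 did. Without tofogliflozin replicate 2 the differences were -0.10 and -0.07, and without tofogliflozin replicate 3 they were -0.79 and -0.83 (adjusted p = 0.190 for each in limma).

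The arm ratios of the hairpins moved together from library to library. Tofogliflozin replicate 2 deviated from the mean of the other 5 libraries by -1.23 in miR-143 and by -1.35 in miR-145a on the log2 scale. In the other libraries the deviations of miR-143 and miR-145a were -0.07 and -0.04 in tofogliflozin replicate 1, 0.41 and 0.49 in tofogliflozin replicate 3, 0.41 and 0.34 in diet-only replicate 1, 0.48 and 0.53 in diet-only replicate 2, and -0.01 and 0.04 in diet-only replicate 3. The deviations of both hairpins were close in each library, although one hairpin is read almost wholly from its 3p arm and the other from both.

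Shifted arm ratios in tofogliflozin replicate 2 were not limited to this cluster. Of the 91 hairpins, 36 had their lowest 3p to 5p ratio of the 6 libraries there (39.6%) and 31 their highest (34.1%). The median absolute deviation was 0.49 in that library and 0.14 to 0.36 in the others. miR-145a ranked 7 and miR-143 ranked 11 of 91 from the most negative deviation, so both lay toward the lower end of a spread that reached in both directions.

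**Figure D3:**
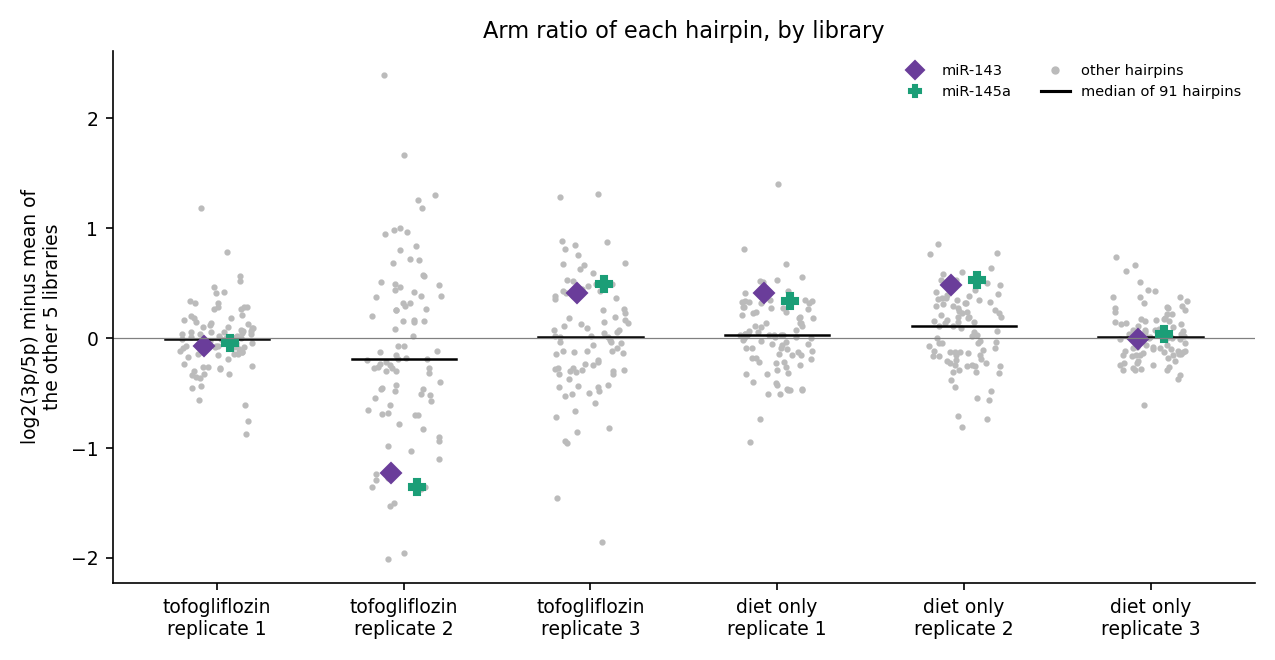
Log2 ratio of the 3p to the 5p count of each of 91 hairpins, as the difference in each library from the mean of the other 5. Grey points are other hairpins and the black line is the median. The points spread most widely in tofogliflozin replicate 2, where miR-143 (-1.23) and miR-145a (-1.35) lie close together near the lower end.

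Cluster mates were compared within each library, since they come from 1 transcript. These ratios use the same counts as the arm ratios, so they are not an independent result. Against the same arm of its mate, miR-143 kept a nearly fixed excess or deficit. miR-143-3p had 205, 220 and 187 times the counts of miR-145a-3p in tofogliflozin replicates 1, 2 and 3, and 201, 178 and 200 times in diet-only replicates 1, 2 and 3. Between the 5p arms the order was the reverse, and miR-143-5p had 0.156, 0.153 and 0.146 times the counts of miR-145a-5p in tofogliflozin replicates 1, 2 and 3, and 0.144, 0.136 and 0.155 times in diet-only replicates 1, 2 and 3. Over all 6 libraries the log2 ratio spanned 0.31 for the 3p arms and 0.20 for the 5p arms. The SD of the 5p ratio (0.075) was about that of counting error in its shallowest library (0.074), while the SD of the 3p ratio was 0.11.

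Across opposite arms the stoichiometry was not constant. The ratio of miR-143-3p to miR-145a-5p, the more abundant arms, was 148, 74.2 and 183 in tofogliflozin replicates 1, 2 and 3, and 180, 178 and 151 in diet-only replicates 1, 2 and 3, a log2 span of 1.30. The ratio of miR-143-5p to miR-145a-3p was 0.218, 0.455 and 0.150 in tofogliflozin replicates 1, 2 and 3, and 0.161, 0.136 and 0.205 in diet-only replicates 1, 2 and 3, a log2 span of 1.74. Counting error on the log2 scale was at most 0.08 for these ratios. Without tofogliflozin replicate 2 the spans were 0.31 and 0.67 for opposite arms and 0.21 and 0.20 for same arms.

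The ratio of miR-143-3p to miR-145a-5p did not pass the limma test of tofogliflozin against diet only. The other ratios between cluster mates had the exact permutation test alone. Its smallest p is 0.1, so it could not pass 0.05 and decides nothing about them. The difference in log2 miR-143-3p over miR-145a-5p was -0.42 ± 0.35 (SE), with an interval of -1.28 to 0.44 and an adjusted p of 0.753 in limma over 43 pairs of neighbouring hairpins. Of those pairs 0 passed the threshold (0.0%), 3 had an unadjusted p under 0.05 (6.98%), and groups did not overlap in 8 (18.6%). Without tofogliflozin replicate 3 the unadjusted count was 10, and without any other library at most 1. For miR-143-5p over miR-145a-3p the difference was 0.57 (exact permutation p = 0.4), for miR-143-3p over miR-145a-3p 0.08 (exact p = 0.4), and for miR-143-5p over miR-145a-5p 0.07 (exact p = 0.3). In these 7 ratios, arm ratios and miR-145b included, the groups always overlapped and the adjusted permutation p was 0.56 or more. The difference in miR-143-3p over miR-145a-5p was -0.04 without tofogliflozin replicate 2 and -0.69 without tofogliflozin replicate 3. That in miR-143-5p over miR-145a-3p was 0.13 without tofogliflozin replicate 2 and 0.93 without tofogliflozin replicate 3. Between same arms, leaving out each library in turn gave 0.02 (without diet-only replicate 2 or tofogliflozin replicate 2) to 0.14 (without tofogliflozin replicate 3) for the 3p arms, while the 5p arms gave 0.12 when diet-only replicate 3 was left out and 0.03 when diet-only replicate 2 was.

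**Figure D4:**
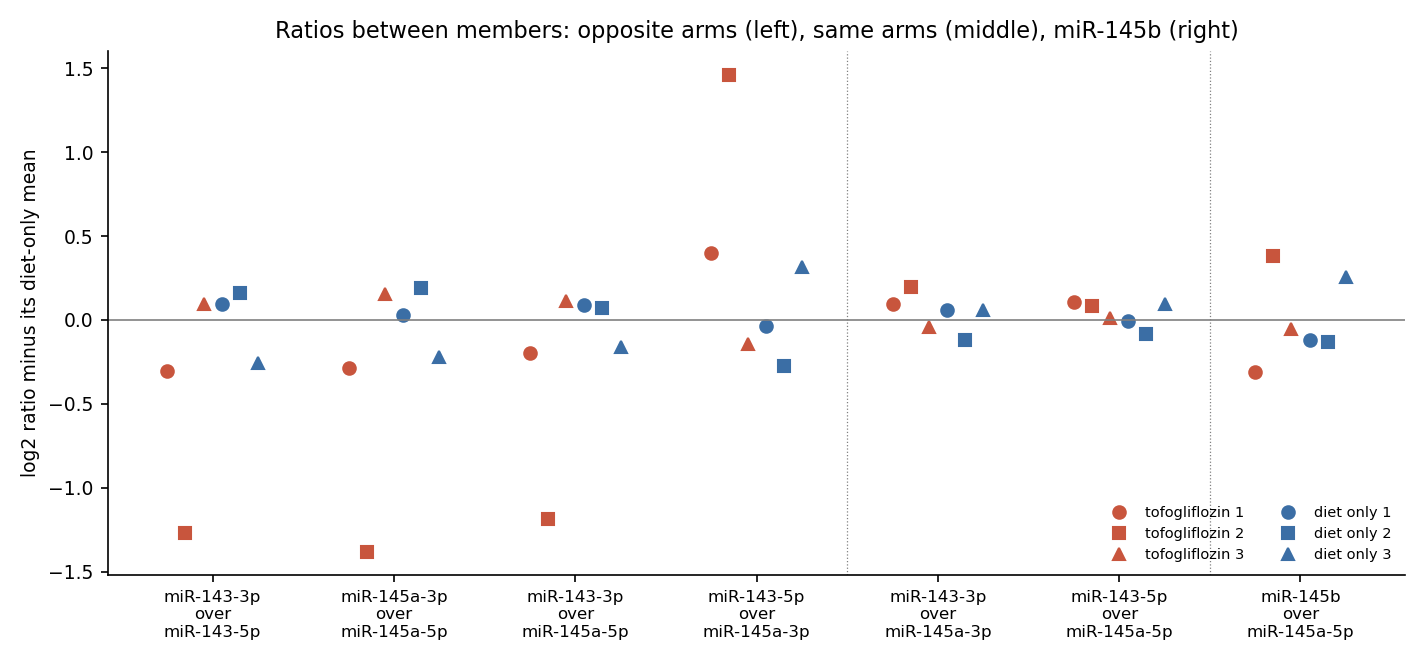
Log2 ratios between the miRNAs in each library, shown as the difference from the diet-only mean of that ratio, with symbols by replicate number. Ratios between opposite arms (left of the first dotted line) span 1.30 to 1.74, while ratios between same arms of miR-143 and miR-145a (middle) span 0.20 and 0.31. The ratio of miR-145b to miR-145a-5p (right) rests on 13 to 24 counts of miR-145b.

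Other clusters gave a reference for this pattern. In 11 pairs of neighbouring hairpins all 4 arms had a mean of at least 50 counts, and the median SD over 6 libraries was 0.27 for same-arm and 0.26 for opposite-arm log2 ratios. In miR-143 with miR-145a the SDs were 0.11 and 0.075 for same arms and 0.50 and 0.63 for opposite arms. Of the 11 it was the 1 pair in which both same-arm SDs lay below both opposite-arm SDs, and 1 of 3 such pairs without tofogliflozin replicate 2. The pattern was noticed in these libraries and has no test here.

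miR-145b made up 0.362% ± 0.0870 of its reads and those of miR-145a-5p together in tofogliflozin mice and 0.362% ± 0.0602 in diet-only mice (SD, n = 3 each). The log2 ratio differed by 0.01 between the groups (exact permutation p = 1.0), and its sign changed with the pseudocount. Over the 6 libraries the share ran from 0.284% to 0.456%, and the Wilson interval of the highest, 0.267% to 0.779%, covered the shares of all the others. Reads of similar mature miRNAs can be split by the counting, so its level is uncertain.

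The order of abundance by mean CPM was miR-143-3p, miR-145a-5p, miR-145a-3p, miR-143-5p and miR-145b. Over all 6 libraries the ranges of miR-145a-5p and miR-145a-3p, neighbours in this order, overlapped, at 316 to 423 CPM and 143 to 318 CPM. Within a library the 3p arm was never above the 5p arm. The 3p counts were 0.719, 0.337 and 0.978 times the 5p counts in tofogliflozin replicates 1, 2 and 3. In diet-only replicates 1, 2 and 3 they were 0.896, 1.0 and 0.754 times the 5p counts. Counts per miRNA also depend on how well each sequence is ligated and amplified, so that levels of different miRNAs compare only roughly.

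The miRNAs most alike in pattern were sought among those with a mean of at least 100 CPM, by the SD over the 6 libraries of the log2 CPM difference to a member. Closest to miR-143-3p were miR-872-5p (SD 0.04), miR-24-2-5p (0.08), miR-29a-3p (0.08), miR-99a-5p (0.09) and miR-27b-3p (0.10), with its cluster mate miR-145a-3p at rank 6 of 135 (0.11). miR-145a-5p was at rank 100 of these (0.50). The 5 closest were chosen with tofogliflozin replicate 2 included, so a shared low value there follows from the choice. Their log2 CPM there was 0.72 to 0.94 below the mean of the other 5 libraries, and that of miR-143-3p 0.82 below. miR-872-5p, for example, had 292, 179 and 339 CPM in tofogliflozin replicates 1, 2 and 3, and 319, 321 and 310 CPM in diet-only replicates 1, 2 and 3.

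Closest to miR-145a-5p were miR-423-3p (SD 0.09), miR-200c-3p (0.10), miR-199a-5p (0.10), miR-92a-3p (0.11) and miR-139-5p (0.11), which is abundant in endothelium. All 5 were high in tofogliflozin replicate 2, by 0.21 to 0.58 on the log2 scale, as miR-145a-5p was by 0.35. The choice included that library, so the shared rise follows from it too. Among the same 135 miRNAs miR-143-3p ranked 120 (0.50) and its own partner arm miR-145a-3p 131 (0.59). The SD between the 5p arms, whose miR-143-5p lay under the abundance limit, was 0.075. Most of the 135 were thus closer in pattern to miR-145a-5p than its own partner arm was.

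These ranks rested in good part on tofogliflozin replicate 2. Without it 1 of the 5 closest to miR-143-3p (miR-872-5p, at rank 5) and 1 of the 5 closest to miR-145a-5p (miR-200c-3p, at rank 2) stayed among the 5 closest. The others were at ranks 22 to 42 for miR-143-3p and at ranks 11 to 39 for miR-145a-5p. For miR-143-3p, miR-145a-3p was then at rank 32 (SD 0.09) and miR-145a-5p at rank 72 (0.15). For miR-145a-5p, miR-143-3p was then at rank 60 (SD 0.15) and miR-145a-3p further down (0.22), against a median SD of 0.16 over the 135.

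**Figure D5:**
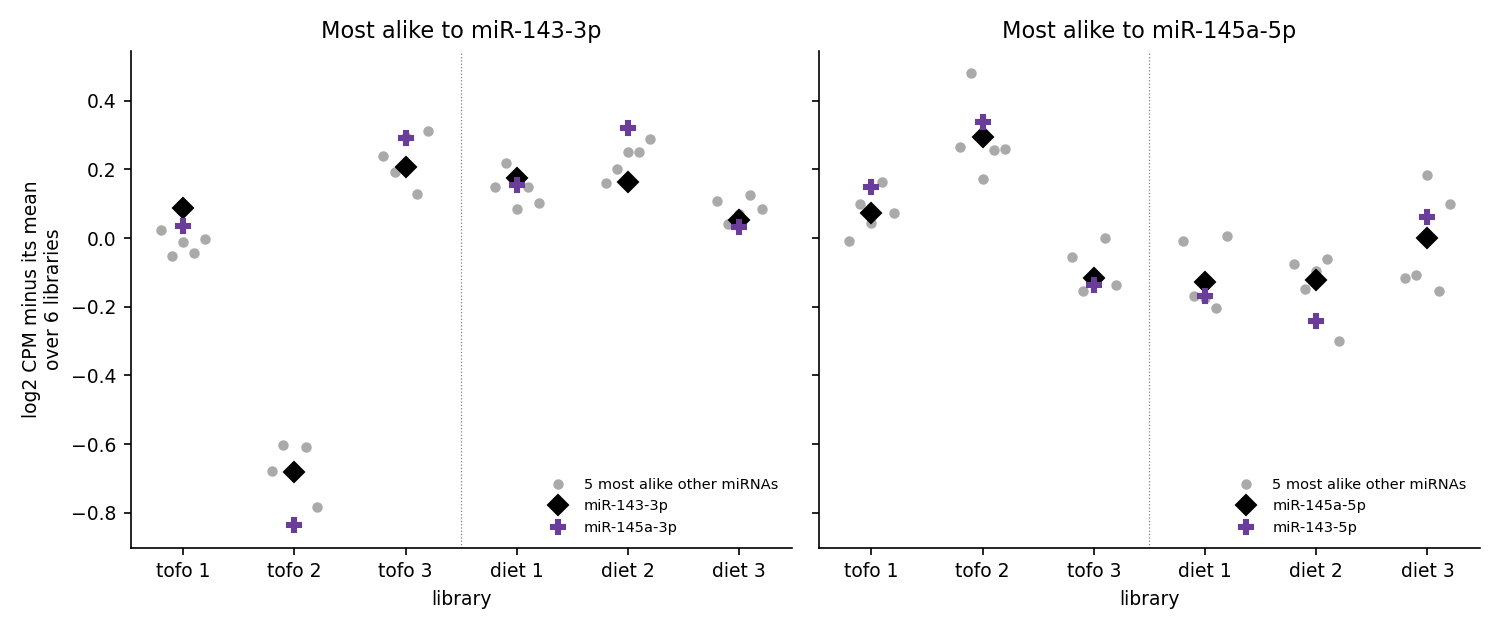
Log2 CPM of miR-143-3p and miR-145a-3p (left) and of miR-145a-5p and miR-143-5p (right) in each library, minus the mean over the 6 libraries, with the 5 most alike other miRNAs in grey. All miRNAs on the left are low in tofogliflozin replicate 2 (tofo 2) and all on the right are high there. The grey miRNAs were chosen for likeness over these same libraries.

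Lists of related miRNAs were set beside the cluster. Of 11 muscle miRNAs linked to SRF and myocardin, the factors that also drive miR-143 and miR-145, 3 passed the low-count filter and 0 the threshold. miR-1a-3p was at 106 ± 15.4 CPM in tofogliflozin mice and 107 ± 14.5 CPM in diet-only mice (SD, n = 3 each), and its estimate was -0.02 ± 0.17 (log2, SE). miR-499-5p (-0.19 ± 0.49) and miR-206-3p (0.26 ± 0.37), both of striated muscle, had a few CPM. That of miR-206-3p was 0.14 without tofogliflozin replicate 1 and 0.48 without tofogliflozin replicate 3, and that of miR-499-5p was 0.17 without tofogliflozin replicate 2. miR-143-3p was far more abundant than any of these.

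Of 11 miRNAs described in the switch of smooth muscle cells between the contractile and proliferating states, 0 passed the threshold in edgeR. Estimates were above 0 for 5 and below 0 for 6. In edgeR 1 had an unadjusted p under 0.05, against 23 of all 460 tested (5.0%). Groups did not overlap for 2, against 55 of the 460 (12.0%). The median log2 fold change of the 11 was -0.02, against -0.01 over all miRNAs tested. The most abundant were miR-26a-5p (-0.03 ± 0.10), miR-10a-5p (-0.03 ± 0.10), miR-21a-5p (-0.28 ± 0.22) and miR-24-3p (-0.16 ± 0.19). Of these, miR-10a-5p is also among the kidney tubule markers summed above, so its level in bulk cortex is not particular to smooth muscle. miR-21a-5p was at -0.54 without tofogliflozin replicate 2 (edgeR adjusted p = 0.521) and at -0.04 without tofogliflozin replicate 3, while miR-24-3p was at 0.01 without tofogliflozin replicate 2. Scaled by library totals alone, miR-26a-5p and miR-10a-5p were slightly above 0.

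Of 6 mesenchymal and pericyte miRNAs, from the miR-199 and miR-214 hairpins, 0 passed, with 3 on either side of 0 and a median of -0.05. Groups did not overlap for 1, against 55 of all 460 tested (12.0%). miR-199a-3p and miR-199b-3p, both below 0, share reads and so count as 1 value, but both entered the split around 0 and the median. With them counted once, the middle value would be that of miR-199a-5p (0.06), above 0. miR-199a-3p was at 828 ± 255 CPM in tofogliflozin mice and 924 ± 135 CPM in diet-only mice (SD, n = 3 each), and miR-199b-3p, which shares its reads, at 827 ± 256 CPM and 923 ± 135 CPM. miR-199a-5p (0.06 ± 0.15) and miR-214-5p (-0.18 ± 0.22) were the next in abundance. Without tofogliflozin replicate 2, miR-199a-3p was at 0.07, miR-199a-5p at -0.02 and miR-214-5p at -0.02, and without tofogliflozin replicate 3 miR-214-5p was at -0.34. Of the 3 miRNAs described in renin cells, the modified smooth muscle cells of the afferent arteriole, 0 passed. miR-125b-5p was at -0.09 ± 0.18 and miR-330-5p at -0.01 ± 0.18, with 0.08 for each without tofogliflozin replicate 2. miR-330-3p was at 12.4 ± 10.9 CPM in tofogliflozin mice and 5.43 ± 1.05 CPM in diet-only mice, which gave 1.144 ± 0.65 on the log2 scale, or 0.23 without tofogliflozin replicate 2.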

How the data were processed

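The authors deposited raw read counts, 1 table per library with 1 row per pairing of mature miRNA and precursor, without normalization. Per the submitters' processing notes, cutadapt 1.14 and build mm10 were used. The aligner, the counter and the miRBase version were not given in the sources used here. Per the labels' protocols, RNA came from a NucleoSpin miRNA kit and libraries from a NEBNext small RNA set.

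For names with more than 1 row the largest count per library was taken, which touches no member but lowers library totals. Differences are tofogliflozin over diet only, from the quasi-likelihood test of edgeR 4.0.16 (R 4.3.3; TMM, filterByExpr, Benjamini-Hochberg over 460 miRNAs, threshold 0.05). SE is the absolute log2 fold change over the square root of F, and log2 CPM used a prior count of 2. Log2 ratios used a pseudocount of 1. Arm ratios (lower arm at a mean of 50 counts or more) and ratios of the more abundant arms of hairpins within 10 kb on 1 strand went through limma 3.58.1. Single values had exact 2-sided permutation tests over 20 arrangements (scipy 1.17.1). A count of 0 allows up to 0.131 to 0.452 CPM (3 counts). Fits were tested on simulated data.

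Named miRNAs were the 5 members, the 5 most alike to each of miR-143-3p and miR-145a-5p, and up to 4 of the most abundant per list. Members and lists were chosen with earlier results of these data known. Whether same-numbered mice shared a batch could not be told from their deviations.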

Additional observations from a re-analysis of the deposited data

How the results depend on the processing

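The settings tried were other size factors, other low-count filters, DESeq2 1.42.0, limma-voom, a robust fit, summed rows, other pseudocounts and arm filters, hairpins within 2 kb, the replicate number as a block and each library left out. The sum of both arms, and the ranks of alike miRNAs without tofogliflozin replicate 2, were chosen after seeing the data. The tally covers the 5 miRNAs, their ratios except those between same arms, and the counts of calls. Under these settings 167 values kept direction and side of the threshold, 6 changed sign and 2 counts moved. Ratios between same arms, outside the tally, kept their direction under each setting run for them. The count of called miRNAs was 10 with no low-count filter and 2 with DESeq2, no member among them in either, and 0 with each library left out. Arm and cluster mate calls stayed 0 under each alternative run. In the blocked fit miR-143-3p was at -0.26 and miR-145a-5p at 0.17, with 0 calls. Deviations of same-numbered mice correlated at 0.003, -0.14 and -0.17 across 460 miRNAs. Each deviation is taken from a mean of 3 mice, so these values cannot show whether same-numbered mice shared a batch. With the sum of both arms miR-143 over miR-145a differed by -0.24 (limma adjusted p = 0.629).

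Leaving out each library gave -0.35 to 0.0211 for miR-143-3p, 0.12 to 0.38 for miR-143-5p, 0.06 to 0.29 for miR-145a-5p, -0.49 to -0.002 for miR-145a-3p and -0.15 to 0.35 for miR-145b. Arm ratio differences ran from -0.79 to -0.10 in miR-143 and -0.83 to -0.07 in miR-145a, miR-143-3p over miR-145a-5p from -0.69 to -0.04 and miR-143-5p over miR-145a-3p from 0.13 to 0.93. miR-145b over miR-145a-5p ran from -0.18 to 0.16 and was -0.0033 with a pseudocount of 0.5.

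Among list members, signs turned with library totals for miR-1a-3p (0.02), miR-26a-5p (0.0122), miR-10a-5p (0.0064) and miR-330-5p (0.036). With rows summed they did so for miR-1a-3p (0.0147), miR-26a-5p (0.0102), miR-10a-5p (0.0043) and miR-330-5p (0.0295), and for miR-330-5p also with RLE factors (0.009) and DESeq2 (0.0101). With a library left out the ranges that crossed 0 were -0.0611 to 0.11 for miR-1a-3p, -0.71 to 0.17 for miR-499-5p, -0.0419 to 0.042 for miR-26a-5p, -0.0523 to 0.0612 for miR-10a-5p, -0.34 to 0.0097 for miR-24-3p, -0.34 to 0.0693 for miR-199a-3p, -0.34 to 0.0704 for miR-199b-3p, -0.0154 to 0.18 for miR-199a-5p, -0.24 to 0.0849 for miR-125b-5p and -0.13 to 0.10 for miR-330-5p. Those that kept their sign were -0.54 to -0.04 for miR-21a-5p, -0.34 to -0.02 for miR-214-5p and 0.14 to 0.48 for miR-206-3p. miR-330-3p passed with no low-count filter (adjusted p = 0.0280). The cause was not tested. Depth limits miR-145b, with 13 to 24 counts a library.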
